A study of Mus musculus with 6 samples.

Results

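The axon guidance ligands and receptors were taken as the protein-coding genes of GENCODE M21 whose symbols mark them as Eph receptors (Epha, Ephb), ephrins (Efna, Efnb), semaphorins (Sema), plexins (Plxn), Robo and Slit genes, netrins (Ntn) and Unc5 receptors, together with Dcc, Nrp1 and Nrp2. This name rule found 73 of 22028 protein-coding genes, and 72 of them had at least 1 event in the data. It also took in Unc50 and Unc5cl, which share the Unc5 letters but are not guidance receptors. RNA had been sequenced from the nucleus accumbens (NAc), the ventral part of the striatum in the brain's reward circuit, of adult male mice of the inbred strain C57BL/6N, for which no engineered allele is named. All mice had gone through conditioned place preference (CPP) training, in which injections are paired with a distinct compartment. The morphine group (3 libraries) had received morphine injections in this training and the saline group (3 libraries) saline injections. The study's methods describe morphine and saline sessions in alternation. The NAc was taken after a preference test on the day after the last session. The series design names more mice than samples per group, while the study's figure text gives each library as the NAc of an individual animal, and pooling could not be settled from these sources. Core and shell of the NAc were not separated, and bulk tissue of this kind cannot tell fewer cells of a type apart from less RNA per cell.

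Axon guidance genes encode cues and their receptors on growth cones. Slit proteins repel axons through Robo receptors, netrins attract through Dcc and repel through Unc5 receptors, class 3 semaphorins act through neuropilins paired with plexins, and ephrins bind Eph receptor tyrosine kinases with signals in both cells. In the adult striatum the same families act at synapses and dendritic spines, and many of their genes are spliced into forms that differ in a short stretch of the protein.

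The measurement was a list, per library, of the places where the assembled transcripts of a gene differ from each other. Such an event was a skipped exon, a retained intron, an exon with an alternative end, or a transcript start or end. Runs of exons skipped together or introns retained together also counted, and so did each form of an exon with alternative ends. An exon or intron can thus enter several events. Every gene with an assembled transcript of several exons has at least 1 start and 1 end, so a gene with 2 events in a library showed no variation there. Starts and ends are placed by a splice site, which a single-exon transcript lacks. A gene that was not listed may thus still have had a transcript. A list holds no level. It says neither how much RNA a gene had nor what share of its transcripts skipped an exon, and an event that was not listed may still have been present in the tissue.

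The libraries listed 14094 to 14788 protein-coding genes with 54262 to 61709 events. Total read numbers were not analysed here. Relative depth, derived from the counts and FPKM values of 31 long non-coding transcripts, was 1, 1.066 and 1.365 in saline libraries 1 to 3 and 1.198, 1.594 and 1.285 in morphine libraries 1 to 3. All 10 striatal neuron genes looked up, Drd1, Drd2 and Penk among them, were listed in all 6 libraries. So were the genes looked up for oligodendrocytes (5 of 5), astrocytes (4 of 4), microglia (3 of 3), ependyma (3 of 3) and cortex (3 of 3), and 2 of 3 for endothelium, where Cldn5 was not listed. No marker gene had event numbers that separated the groups.

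The most stable splicing in these gene families was the skipping of short coding exons. The 58 distinct single skipped exons of the members included 23 that were listed in all 6 libraries, from 14 genes, and these were 24 to 2042 nt long with a median of 93 nt. Of the 23, 21 (91.3%) had a length that is a multiple of 3, which keeps the reading frame when a coding exon is skipped. All 20 that were coding over their whole length had such a length. Among the exons listed in 2 to 5 libraries the share was 64.7% (11 of 17), and among those listed in a single library 44.4% (8 of 18). The other protein-coding genes showed the same order at lower values, 69.4% of 2107 exons in all 6 libraries, 49.6% of 3283 in 2 to 5 and 41.0% of 3311 in 1. The 2107 exons had a median length of 87 nt. Of the 1515 among them that were coding over their whole length, 1238 (81.7%) had a length that is a multiple of 3. These shares describe the lists and were not tested, since exons of 1 gene share their transcripts.

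The following sequences show exons that each library spliced both ways, or that varied between libraries, from the GENCODE M21 transcripts on GRCm38. Capitals mark the skipped exon, and the lower-case letters are the last 12 bases of the exon before it and the first 12 bases of the exon after it in the named gene's transcript. The ligand Slit2 had 3 annotated microexons among them. Those of 24 nt (chr5:48220967-48220990, + strand) and 27 nt (chr5:48263641-48263667, +) were listed as skipped in all 6 libraries. A 12-nt exon (chr5:48191003-48191014, +) was listed in saline library 2 and morphine libraries 1 and 3. Its receptor Robo2 also had a 12-nt exon (chr16:74008775-74008786, -), listed in morphine libraries 2 and 3 only, and exons of 126 nt (chr16:73933046-73933171, -) and 273 nt (chr16:73898912-73899184, -) in all 6.
Slit2, 12 nt: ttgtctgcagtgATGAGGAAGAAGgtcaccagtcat
Slit2, 24 nt: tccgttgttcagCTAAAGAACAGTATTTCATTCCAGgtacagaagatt
Slit2, 27 nt: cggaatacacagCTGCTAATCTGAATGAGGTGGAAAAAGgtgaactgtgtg
Robo2, 12 nt: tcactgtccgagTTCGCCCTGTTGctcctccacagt
Robo2, 126 nt: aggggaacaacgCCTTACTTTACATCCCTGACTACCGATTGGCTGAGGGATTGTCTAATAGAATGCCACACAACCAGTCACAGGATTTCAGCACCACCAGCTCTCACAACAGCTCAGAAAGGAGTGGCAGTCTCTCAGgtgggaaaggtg

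The neuropilins Nrp1 and Nrp2 each had an exon with alternative ends in all 6 libraries. Nrp2, a co-receptor for class 3 semaphorins, had 7 events in each of the 6 libraries. In all 6 its 51-nt exon (chr1:62812534-62812584, +) was listed as skipped, and an exon starting at chr1:62786281 was listed in a 21-nt and a 36-nt form. The longer form has 15 further bases at its 3′ side, shown in capitals. Nrp1, the related co-receptor, was listed in all 6 libraries with a 105-nt exon (chr8:128480885-128480989, +) and an 84-nt form that GENCODE does not annotate, so the 21 bases in capitals were present in some assembled transcripts and absent from others. Both differences are multiples of 3. Nrp1 and the further genes described for their exon ends were chosen after their values were seen.
Nrp2, skipped exon: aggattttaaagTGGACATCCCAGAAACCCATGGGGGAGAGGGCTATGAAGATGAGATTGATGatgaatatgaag
Nrp2, exon of 36 nt: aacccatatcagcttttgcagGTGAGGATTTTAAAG
Nrp1, exon of 105 nt: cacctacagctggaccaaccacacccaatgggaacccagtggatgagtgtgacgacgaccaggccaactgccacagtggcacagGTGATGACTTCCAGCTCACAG

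Ephrins and their receptors carried exons of intermediate length. Efna5, a ligand held to the membrane by a lipid anchor, had an 81-nt exon (chr17:62613316-62613396, -), and Efnb2, a ligand that spans the membrane, a 93-nt exon (chr8:8623148-8623240, -). Both were listed as skipped in all 6 libraries. Epha5, a receptor for ephrin-A ligands, had exons of 66 nt (chr5:84117561-84117626, -), 156 nt (chr5:84237399-84237554, -) and 336 nt (chr5:84233583-84233918, -), each listed as skipped on its own in all 6 libraries, and the 156-nt and 336-nt exons were also skipped together in all 6. Epha7, a receptor of the same class, was listed in all 6 with an exon in a 114-nt and a 126-nt form (chr4:28947528-28947653, +), which differ by 12 bases at the splice acceptor. The only exon here that was listed in all 6 libraries, kept the frame and was not annotated belonged to Epha6 (120 nt, chr16:60483791-60483910, -). Epha6 and Epha7 were chosen after their values were seen.
Efna5, 81 nt: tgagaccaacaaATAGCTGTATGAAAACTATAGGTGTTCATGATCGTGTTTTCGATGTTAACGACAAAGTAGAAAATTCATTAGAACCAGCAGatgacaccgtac
Efnb2, 93 nt: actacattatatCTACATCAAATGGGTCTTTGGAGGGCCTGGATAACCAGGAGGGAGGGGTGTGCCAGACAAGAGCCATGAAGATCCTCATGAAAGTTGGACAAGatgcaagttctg
Epha5, 66 nt: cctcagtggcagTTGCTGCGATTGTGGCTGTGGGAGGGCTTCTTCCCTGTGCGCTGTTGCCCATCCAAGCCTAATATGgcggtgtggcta
Epha5, 156 nt: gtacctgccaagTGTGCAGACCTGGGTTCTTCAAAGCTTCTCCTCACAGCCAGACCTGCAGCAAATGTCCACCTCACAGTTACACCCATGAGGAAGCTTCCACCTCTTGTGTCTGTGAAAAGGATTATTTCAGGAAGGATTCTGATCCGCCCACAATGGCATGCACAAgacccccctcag
Epha7, exon of 126 nt: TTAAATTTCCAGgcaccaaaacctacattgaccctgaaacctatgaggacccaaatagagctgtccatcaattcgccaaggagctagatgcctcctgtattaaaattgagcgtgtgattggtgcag

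Among the Unc5 receptors for netrins, Unc5a and Unc5d had a skipped exon of the same length. Unc5a (chr13:54997193-54997360, +) and Unc5d (chr8:28760725-28760892, -) each had a 168-nt exon that was listed as skipped in all 6 libraries. The 2 exons were identical at 126 of 168 bases (75.0%) when set side by side without gaps. Thrombospondin type 1 repeats are a known feature of the extracellular part of Unc5 proteins. Unc5b (chr10:60777185-60777217, -) and Unc5d (chr8:28741480-28741512, -) each had a 33-nt exon listed in 4 libraries, with 18 of 33 bases (54.5%) identical. Saline libraries 2 and 3 and morphine libraries 1 and 3 listed that of Unc5b, and saline libraries 1 and 3 and morphine libraries 1 and 3 that of Unc5d. Unc5c had a 57-nt exon (chr3:141786857-141786913, +) in saline libraries 2 and 3 and morphine libraries 1 and 2. Unc5b, Unc5c and Unc5d were chosen after their values were seen.
Unc5a, 168 nt: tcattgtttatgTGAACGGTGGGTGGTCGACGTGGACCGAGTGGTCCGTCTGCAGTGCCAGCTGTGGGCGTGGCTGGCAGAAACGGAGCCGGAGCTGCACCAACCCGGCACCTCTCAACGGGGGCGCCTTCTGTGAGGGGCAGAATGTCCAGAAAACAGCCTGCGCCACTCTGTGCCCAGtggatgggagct
Unc5d, 168 nt: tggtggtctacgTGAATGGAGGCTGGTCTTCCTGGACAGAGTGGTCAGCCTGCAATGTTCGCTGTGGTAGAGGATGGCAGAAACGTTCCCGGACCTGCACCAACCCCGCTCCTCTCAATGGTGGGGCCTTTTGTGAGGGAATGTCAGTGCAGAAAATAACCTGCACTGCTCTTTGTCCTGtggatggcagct
Unc5b, 33 nt: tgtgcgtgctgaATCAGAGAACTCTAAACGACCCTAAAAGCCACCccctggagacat
Unc5d, 33 nt: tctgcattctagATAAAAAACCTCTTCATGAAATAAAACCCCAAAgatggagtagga
Unc5c, 57 nt: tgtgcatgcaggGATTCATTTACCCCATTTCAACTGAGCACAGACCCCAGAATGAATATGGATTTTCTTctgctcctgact

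Ntng1 encodes netrin-G1, a membrane-anchored relative of the netrins found on axons. Its exons of 66 nt (chr3:109841510-109841575, -) and 60 nt (chr3:109839120-109839179, -) follow each other and were listed as skipped singly and together in all 6 libraries. A 135-nt exon of Ntng1 (chr3:109827627-109827761, -) was listed as skipped on its own, with exact flanking exons, in morphine libraries 2 and 3, and as an approximate event, whose flanking exons differ, in saline library 3 and morphine library 2. It was also part of a skipped run of exons (chr3:109827627-109832635) in all 6.
Ntng1, 66 nt: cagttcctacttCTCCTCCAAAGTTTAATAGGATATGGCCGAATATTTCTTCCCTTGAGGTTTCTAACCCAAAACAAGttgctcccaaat
Ntng1, 60 nt: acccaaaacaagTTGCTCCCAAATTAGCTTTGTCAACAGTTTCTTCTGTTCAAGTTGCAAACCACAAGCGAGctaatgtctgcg

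Semaphorins held the most such exons. Sema6d, which spans the membrane, had a 57-nt exon (chr2:124660705-124660761, +) and a following exon with 2 donor sites, of 156 or 168 nt (chr2:124662204-124662371, +). All 3 forms were listed as skipped in all 6 libraries, and so was the 57-nt exon together with either form of the next. An earlier exon of Sema6d (chr2:124660244-124660344, +) had a 62-nt and a 101-nt form in all 6 libraries, which differ by 39 bases at the acceptor. The secreted Sema3f had a 93-nt exon (chr9:107691356-107691448, -) in all 6.
Sema6d, 57 nt: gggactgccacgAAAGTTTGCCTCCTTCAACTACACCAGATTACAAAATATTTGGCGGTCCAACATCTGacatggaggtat
Sema6d, exon of 168 nt with the 12 bases past the inner donor in capitals: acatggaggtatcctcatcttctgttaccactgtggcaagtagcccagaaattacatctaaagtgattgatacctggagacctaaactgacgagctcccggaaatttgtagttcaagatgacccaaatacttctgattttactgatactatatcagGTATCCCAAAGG
Sema3f, 93 nt: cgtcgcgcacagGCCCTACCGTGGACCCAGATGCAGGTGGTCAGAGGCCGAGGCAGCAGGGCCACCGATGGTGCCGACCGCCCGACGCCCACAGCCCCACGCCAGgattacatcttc

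Sema6a, of the same class as Sema6d, had exons of 51 and 165 nt skipped in all 6 libraries, also together. Sema4d, which acts through Plxnb1 and Plxnb2, was the exception to the rule of frame: its annotated 64-nt exon is not coding over its whole length and its 2042-nt exon is not annotated, both were listed as skipped in all 6 libraries, and neither length is a multiple of 3. A 32-nt exon of Sema4d was listed in 5 libraries (all but morphine 3) and a 330-nt exon in 4 (the 3 saline libraries and morphine 2).

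**Figure D1:**
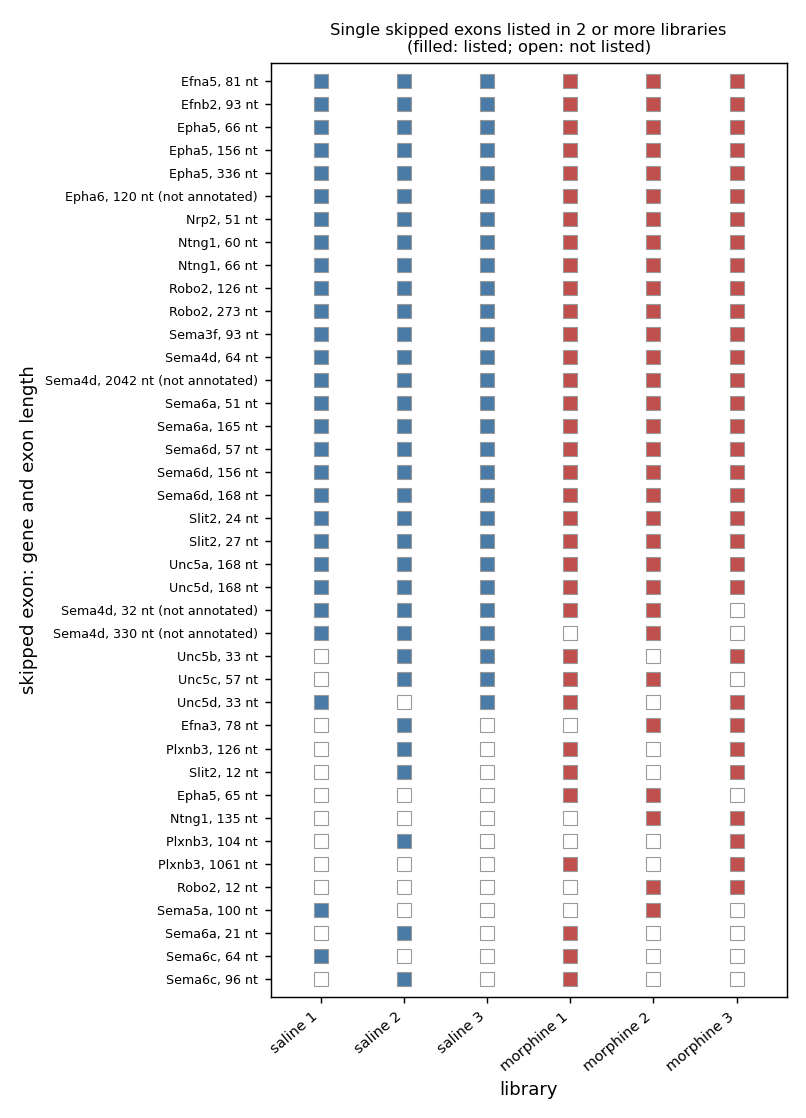
Single skipped exons of axon guidance genes listed in 2 or more libraries as exact events (approximate events are not drawn), with gene and exon length in nt down the side and the 6 libraries across (filled square, listed; open square, not listed; blue saline, red morphine). The upper 23 exons were listed in all 6 libraries, and no exon was listed by the whole of 1 group while the other group lacked it.

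Alternative exon ends came with matched forms in all 6 libraries in 7 genes, which were Epha4, Epha7, Nrp1, Nrp2, Robo1, Sema6d and Unc5d. The added stretch was 12, 21, 15, 165 and 39 bases in Epha7, Nrp1, Nrp2, Robo1 and Unc5d, and 39 and 12 bases in the pair of Sema6d exons. Each of these is a multiple of 3, while the 29 bases of Epha4, a receptor for both ephrin classes, are not. The 171-nt form of the Robo1 exon is not annotated. Epha4 had 4 events in each of the 6 libraries.

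Retained introns were rarely listed more than once. Only 1 of 198 distinct retained-intron events was in all 6 libraries (0.505%; other protein-coding genes 1.70%), and 156 (78.8%) were in a single library. The 1 stable intron had 140 nt and belonged to Plxna3, a receptor for class 3 semaphorins together with neuropilins (between the exon bases chrX:74335157-74335298, +). An 811-nt intron of Epha10, an Eph receptor without kinase activity, was listed in 5 libraries (all but morphine 2).

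Starts and ends were placed by the splice site of the first or last exon, and 36 of 72 members had exactly 1 start and exactly 1 end that all 6 libraries listed. In 50 members at least 1 start was listed in all 6 libraries, a single start in 45, 2 in Plxnb1, Sema4a, Sema4d and Unc50, and 3 in Robo1. In 53 members at least 1 end was listed in all 6, a single end in 51 and 2 in Sema4f and Slit1. Of the 56 starts in all 6 libraries 55 (98.2%) were annotated and all 55 such ends were, against 16.4% of 116 starts and 10.5% of 57 ends that were listed in a single library. The 1 start in all 6 libraries that GENCODE lacks belonged to Robo1, the other main Slit receptor besides Robo2. Its first exon ended at position 72027907 of chromosome 16, 280399 bases upstream of the annotated gene. Epha7 had an end in all 6 libraries whose last exon began at position 28946219 of chromosome 4, before the alternative exon shown above. The ends further downstream, at 28963889 and 28966523, were listed in 5 libraries (all but morphine 3) and in 3 (saline libraries 2 and 3 and morphine library 1). Forms of EphA7 that end ahead of the kinase domain are known. Robo1, Epha7, Sema4a, Sema4f, Slit1 and Plxnb1 were named here after their values were seen.

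The comparison of morphine with saline asked whether the NAc of morphine-trained mice listed other or more events in these genes. The members had 322, 289 and 298 events in the saline libraries and 369, 352 and 348 in the morphine libraries. The groups did not overlap, with means of 303 ± 17.1 and 356 ± 11.2 (SD, n = 3 each), a difference of 53.3 events (17.6%; two-sided exact permutation test, p = 0.1, the smallest p that 3 against 3 libraries allow). All other protein-coding genes together differed by 5.43% in the same direction. The design cannot reach a p under 0.05, so no difference between the groups passed a test. The labels do not tie a library to an animal, so these p-values measure the spread between libraries, which may be technical.

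The larger differences were in events inside transcripts. Skipped exons numbered 40, 45 and 43 in saline and 50, 50 and 49 in morphine libraries (42.7 ± 2.52 and 49.7 ± 0.577; exact p = 0.1, adjusted p = 0.2 over the 4 kinds of event). Alternative exon ends numbered 33, 38 and 26 against 50, 50 and 55 (32.3 ± 6.03 and 51.7 ± 2.89; exact p = 0.1, adjusted 0.2). The latter are numbers of exon forms, since the short and the long form of an exon each counted. In both kinds every morphine library lay above every saline library. Retained introns numbered 49, 19 and 22 against 68, 52 and 48, and here saline library 1 lay above morphine library 3 (30 ± 16.5 and 56 ± 10.6; exact p = 0.2, adjusted 0.267). Transcript starts and ends numbered 200, 187 and 207 against 201, 200 and 196, with means of 198 ± 10.1 and 199 ± 2.65 (exact p = 0.9, adjusted 0.9). Over all protein-coding genes the same 4 kinds differed by 2.51%, 8.81%, 23.3% and 2.57% (exact p = 0.6, 0.2, 0.3 and 0.2).

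**Figure D2:**
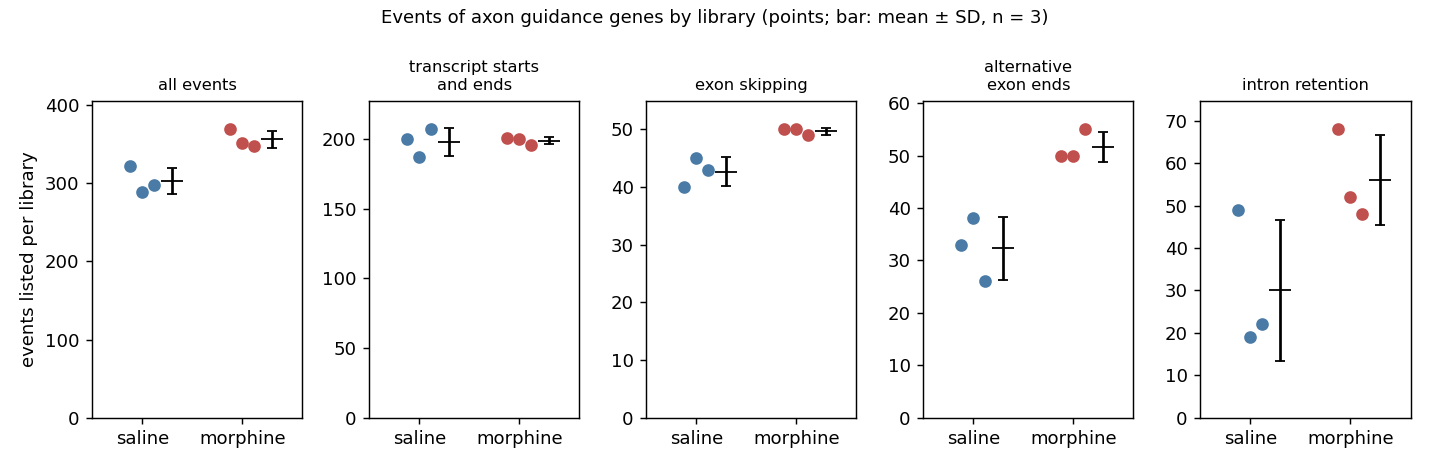
Number of events of axon guidance genes listed in each library (points; cross and bar, mean ± SD, n = 3), for all events and for each of the 4 kinds of event; the vertical axes start at 0 and have their own scale. For all events, exon skipping and alternative exon ends the 3 morphine libraries lie above the 3 saline libraries, while starts and ends overlap between 187 and 207.

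Relative to the size of the library's list, the order held for the total and not for every kind. Per 1000 events of protein-coding genes, the members took 5.57, 5.33 and 5.26 in saline and 5.98, 5.87 and 6.17 in morphine libraries (5.38 ± 0.164 and 6.01 ± 0.152; exact p = 0.1). Per 1000 events of any kind, skipped exons of the members were 0.692, 0.829 and 0.759 in saline and 0.810, 0.834 and 0.869 in morphine libraries, where morphine library 1 lay below saline library 2 (exact p = 0.2). Alternative exon ends and retained introns did not overlap on this scale (exact p = 0.1 each). Against events of the same kind, the members took 7.08, 7.86 and 6.88 of 1000 skipping events in saline and 8.39, 8.02 and 8.35 in morphine libraries (exact p = 0.1). Per 1000 retained introns they took 6.17, 3.48 and 4.05 against 7.15, 7.14 and 7.47 (exact p = 0.1), so the overlap seen in the plain numbers was gone. Per 1000 starts and ends they took 5.15 ± 0.164 and 5.05 ± 0.0548 (exact p = 0.4). Relative depth was higher in each morphine library than in saline libraries 1 and 2, saline library 3 was deeper than morphine libraries 1 and 3, and saline library 1, with the lowest depth, had the most member events of its group. The part of depth in the differences was not tested.

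A pair of plexins weighed on these totals. Plxnb3, a semaphorin receptor of class B, had 59 distinct events, 46 of them in a single library, and its numbers were 2, 16 and 4 in saline and 15, 24 and 22 in morphine libraries. Of these, 28 distinct events lay at least partly outside the annotated gene, 0 in each saline library and 1, 17 and 12 in the morphine libraries. Inside the gene Plxnb3 had 2, 16 and 4 against 14, 7 and 10 events (exact p = 0.6). Plxna3 had 39 distinct events and 22, 6 and 6 against 18, 9 and 10. Together they held 98 of 793 distinct member events (12.4%). Without both, the members had 298, 267 and 288 events in saline and 336, 319 and 316 in morphine libraries (284 ± 15.8 and 324 ± 10.8; exact p = 0.1). Exon skipping was then 40, 43 and 43 against 47, 50 and 45 and alternative exon ends 28, 34 and 26 against 44, 44 and 47 (exact p = 0.1 each), while retained introns were 35, 11 and 19 against 53, 33 and 34 (exact p = 0.3).

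Without every event that reaches outside its annotated gene, an alternative chosen after seeing the data, the members had 318, 286 and 294 events in saline and 366, 330 and 335 in morphine libraries (exact p = 0.1). Alternative exon ends were then 33, 38 and 26 against 50, 46 and 51 (exact p = 0.1), skipped exons were the same as before, and retained introns were 49, 19 and 22 against 68, 40 and 41 (exact p = 0.3).

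By gene family, none of the 6 passed (two-sided exact permutation tests, adjusted p from 0.6 to 1). Plexins and neuropilins had numbers without overlap, 59, 51 and 44 events in saline and 69, 66 and 64 in morphine libraries (51.3 ± 7.51 and 66.3 ± 2.52; exact p = 0.1, adjusted 0.6). Without both genes the family had 35, 29 and 34 against 36, 33 and 32 events, which overlapped, with a difference of 1 event in place of 15 (exact p = 0.8). Without events outside the annotated genes it had 59, 51 and 44 against 68, 48 and 52, which also overlapped, with a difference of 4.67 (exact p = 0.6). Semaphorins had 103, 90 and 96 against 123, 122 and 102 events, where morphine library 3 lay below saline library 1 (exact p = 0.2, adjusted 0.6). Without events outside the annotated genes these were 101, 89 and 95 against 123, 122 and 102, which did not overlap (exact p = 0.1, adjusted 0.6). Within the semaphorins, retained introns were 12, 4 and 5 against 23, 24 and 14 and alternative exon ends 12, 12 and 10 against 22, 18 and 16, both without overlap. Alternative exon ends of plexins and neuropilins did not overlap either, with 9, 8 and 4 against 12, 10 and 12. These splits of family by kind were picked after their values were seen and were not tested.

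The other 4 families overlapped between the groups. Eph receptors had 53, 51 and 55 against 69, 51 and 77 events, with morphine library 2 level with the lowest saline library (exact p = 0.4). Robo and Slit genes had 34, 35 and 31 against 39, 39 and 34 (exact p = 0.3). Netrins with Dcc and Unc5 receptors had 53, 42 and 51 against 48, 53 and 51 (exact p = 0.9). The ephrins were the quietest family, with 20, 20 and 21 against 21, 21 and 20 events (exact p = 1) and not a single retained intron or alternative exon end in any library. Ephrin genes have only 4 to 9 annotated exons each, where a listed member has 29.4 on average. The family numbers are not scaled by exons.

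Single genes rarely separated the groups. The event numbers of 4 of 72 members (5.56%) did not overlap between the groups, and over all listed protein-coding genes 2.75% did not. In 2 members the morphine libraries were higher (background 1.79%) and in 2 the saline libraries (background 0.961%). Each has an exact p of 0.1 alone and was not tested further.

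Epha5 and Robo2 were higher in the morphine libraries. Epha5 had 7, 9 and 7 events in saline and 10, 12 and 18 in morphine libraries (7.67 ± 1.15 and 13.3 ± 4.16). Of its 26 distinct events 16 were in a single library. Morphine library 3 alone listed its 4 forms of exons with alternative ends and held 4 of its 5 distinct retained-intron events. An intron of Epha5 entered these both as an exact and as an approximate event. A 65-nt coding exon of Epha5 (chr5:84386219-84386283, -), whose length is not a multiple of 3, was listed as skipped in morphine libraries 1 and 2. Robo2 had 5, 4 and 5 against 6, 8 and 6 events (4.67 ± 0.577 and 6.67 ± 1.15). Its 12-nt exon shown above was among the events listed only in morphine libraries, in 2 of the 3.

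Epha10 and Plxnb2 were higher in the saline libraries. Epha10 had 9, 5 and 7 events in saline and 4, 3 and 4 in morphine libraries (7 ± 2 and 3.67 ± 0.577). Starts and ends made up 6, 4 and 4 of these events against 3, 2 and 3. Plxnb2, the receptor of class 4 semaphorins, had 4, 3 and 3 against 2, 2 and 2 events. Each saline library listed a second end of Plxnb2, at position 89156177 of chromosome 15 in saline libraries 1 and 2 and 3 bases away, at 89156174, in saline library 3, and no morphine library listed either. Counted by kind of event, these were the only members without overlap: 2 of 72 for starts and ends (background 1.48%), 0 of 28 for exon skipping (2.01%), 0 of 35 for retained introns (2.93%) and 0 of 31 for alternative exon ends (1.86%).

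By the direction of the group means, 33 of 72 members (45.8%) had the higher mean event number in morphine, 18 (25.0%) in saline and 21 (29.2%) were equal. Over all listed protein-coding genes these shares were 38.9%, 28.9% and 32.3%. The median difference was 0 in both sets, and the mean difference was 0.741 events per member against 0.194 per protein-coding gene.

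**Figure D3:**
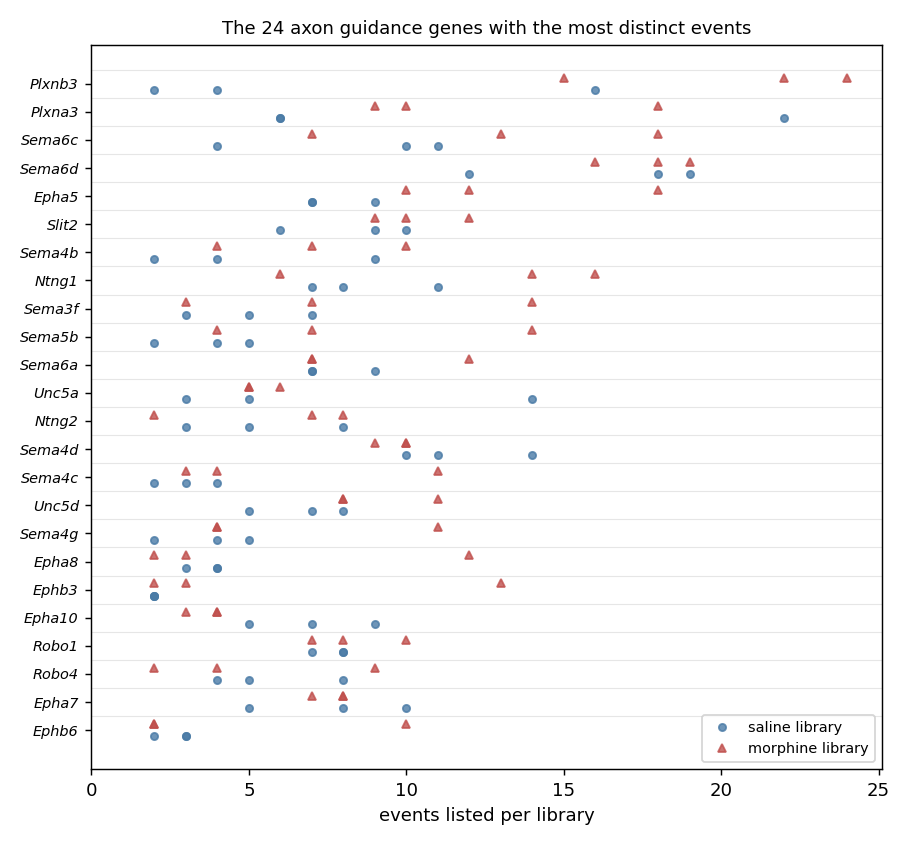
Events listed per library for the 24 axon guidance genes with the most distinct events (blue circles, saline libraries; red triangles, morphine libraries; darker points are libraries with equal numbers). Epha5 and Epha10 are the only genes drawn whose libraries separate by group, and several genes show 1 library far to the right of the others.

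Several members had many events in a single library of either group. Ephb3, a receptor for ephrin-B ligands, had 2, 2 and 2 events in saline and 3, 2 and 13 in morphine libraries, with 7 retained-intron events in morphine library 3. Epha8 had 4, 3 and 4 against 12, 2 and 3, with 7 retained-intron events in morphine library 1. In both genes some introns entered several of these events, alone, in a run or, in Ephb3, as an approximate event. Unc5a had 14, 3 and 5 against 6, 5 and 5, with 7 retained-intron events in saline library 1. Plxna3 had 14, 2 and 2 retained-intron events against 10, 4 and 7, with high numbers in a library of each group.

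Other leading members overlapped throughout. Sema6c, with 37 distinct events the richest semaphorin, had 10, 4 and 11 against 7, 18 and 13, and Sema6d 12, 19 and 18 against 16, 18 and 19. Slit2 had 10, 9 and 6 against 9, 10 and 12. Ntng1 had 7, 8 and 11 against 6, 16 and 14. Robo1 had 8, 7 and 8 against 8, 10 and 7. Robo4, the Robo gene of blood vessels, had 4, 8 and 5 against 9, 4 and 2. Among the ephrins Efnb2 had 4, 4 and 4 against 5, 3 and 4, and Efna5 had 3, 3 and 4 against 5, 4 and 3.

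By event number, 10 members had 2 events, a start and an end, in each of the 6 libraries (13.9%), and 14 had the same event number in all 6 (19.4%). The positions were not always the same. Robo3, among the 10, had 10 distinct events, of which 0 were in all 6 libraries and 8 in a single library. Ntn3 had no event in any library. Efna4, Epha1, Unc5cl and Ntn5 were missing from some: Efna4 had no event in saline library 2 and morphine library 1, Epha1 none in saline library 2, Unc5cl none in saline library 1, and Ntn5 had events in saline library 3 only. Dcc, the netrin receptor, had 2, 3 and 2 against 3, 2 and 5 events, all of them starts and ends.

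Only 2 of 793 member events (0.252%) were complete in 1 group (3 of 3 libraries) and missing from the other, and over all protein-coding genes 0.657% of events were. Both were transcript ends or starts of B plexins. Plxnb1, the receptor of Sema4d, had a start that is not annotated, with a first exon ending at position 109099323 of chromosome 9, in the 3 morphine libraries. The annotated starts of Plxnb1 at 109095645 and 109096814 were listed in all 6 libraries. Plxnb3 had its annotated end, with a last exon beginning at position 73772146 of chromosome X, in the 3 saline libraries and in no morphine library. The morphine libraries listed other ends in its place, at 73772884 in library 1, which is 370 bases past the annotated gene, and at 73778504 in libraries 2 and 3, which lies 5990 bases past it and inside the next gene on the same strand, Srpk3. No skipped exon, retained intron or alternative exon end of a member was specific to a group in this sense.

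The members were set beside the other protein-coding genes by events per gene, events per exon and the kind of event. Taken within each library, a listed member had 4.68 ± 0.451 events (SD over 6 libraries) and another protein-coding gene 4.005 ± 0.183, a difference of 0.672 that was positive in 6 of 6 libraries (exact sign-flip permutation test, two-sided, p = 0.03125, the smallest that 6 libraries allow). The members also have more annotated exons, 29.4 per gene against 21.8. Per 100 annotated exons they had fewer events, 15.9 ± 1.51 against 18.4 ± 0.816, a difference of -2.48 that was negative in 6 of 6 libraries (exact p = 0.03125). The direction thus depends on whether events are counted per gene or per exon. These p-values, and those for the kinds of event below, measure how alike the libraries are for a fixed set of genes. They do not measure the spread between genes, which was not tested. Without Plxnb3 and Plxna3, left out after seeing the data, the difference per gene was 0.433. Both groups were pooled here, and the size of the differences varied by group. Events per listed member were 4.60, 4.19 and 4.14 in saline and 5.27, 4.96 and 4.90 in morphine libraries. Other genes had 4.10, 3.81 and 3.88 against 4.30, 4.05 and 3.89. The difference per gene was thus larger in each morphine library than in any saline library. Per 100 exons it was smaller in each morphine library.

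Exon skipping took 14.0% ± 1.04 of the members' events and 10.3% ± 0.512 of those of other genes. The difference of 3.76 percentage points was positive in 6 of 6 libraries (exact p = 0.03125, adjusted p = 0.0625 over the 4 kinds). Transcript starts and ends took 60.6% ± 5.79 against 67.5% ± 2.02, lower by 6.83 points and negative in 6 of 6 libraries (exact p = 0.03125, adjusted 0.0625). Neither passed 0.05 after adjustment. In the saline libraries, starts and ends took 62.1%, 64.7% and 69.46% of the members' events, against 66.1%, 69.5% and 69.56% in other genes. In the morphine libraries they took 54.5%, 56.8% and 56.3% against 64.5%, 66.9% and 68.3%. Alternative exon ends (12.6% against 10.2%; exact p = 0.125, adjusted 0.167) and retained introns (12.69% against 12.05%; exact p = 0.594, adjusted 0.594) did not pass either.

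**Figure D4:**
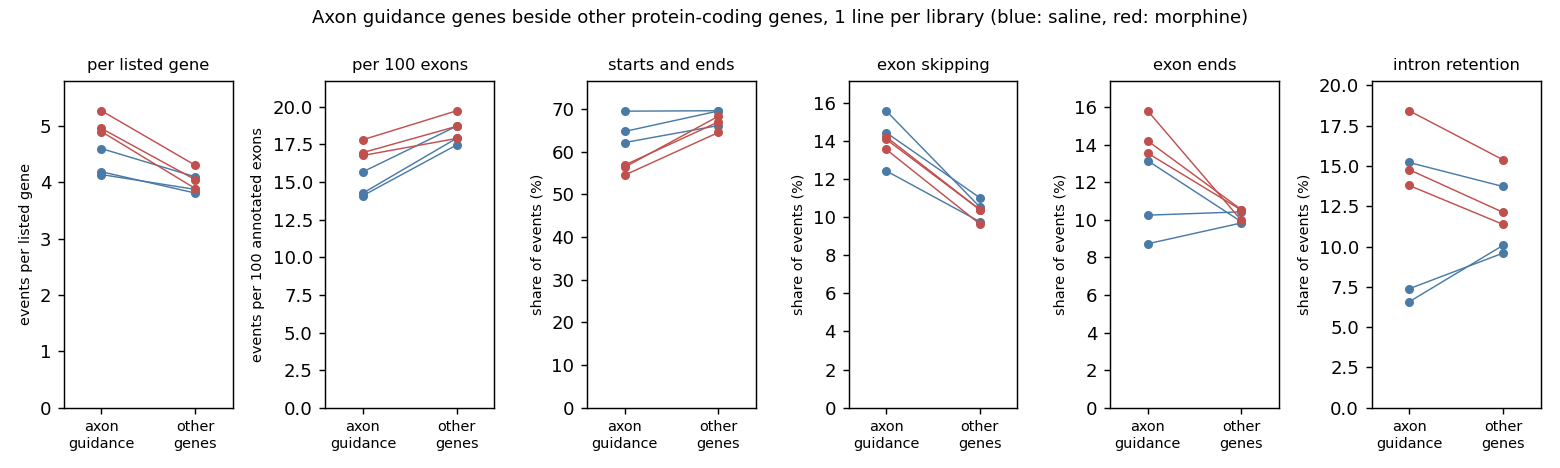
Axon guidance genes beside all other protein-coding genes, with 1 line per library (blue saline, red morphine): events per listed gene, events per 100 annotated exons, and the share (%) of each kind of event. All 6 lines fall from axon guidance genes to other genes for events per gene and exon skipping and rise for events per 100 exons and starts and ends, while alternative exon ends and intron retention have lines in both directions.

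Skipped exons of the members were also more often shared by the libraries. Of 84 distinct skipping events 30 were in all 6 libraries (35.7%), against 19.5% of 12806 in other genes. Over all kinds the shares were alike, 158 of 793 (19.9%) against 20.5%, and 444 member events (56.0%) were in a single library against 50.5%. These shares were not tested. Of the 793 member events, 9 in 6 genes (Dcc, Ephb1, Nrp2, Plxnc1, Slit3 and Unc5d) lay opposite to the strand of their gene, and all 9 were starts or ends.

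Downstream of the receptors, 44 genes for the intracellular part of axon guidance were looked up, such as the kinases Rock1 and Pak1, the collapsin response mediators Dpysl2 to Dpysl5 and the small GTPases Rac1 and Rhoa. All 44 were listed in all 6 libraries, with 235, 226 and 222 events in saline and 239, 238 and 227 in morphine libraries. The event numbers of 1 of the 44 did not overlap between the groups, where the background is 2.75%. This was Dpysl4, with 6, 5 and 4 events against 12, 8 and 11.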

How the data were processed

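Total RNA from the NAc of 6 samples, 3 per group, was sequenced by the authors in strand-specific libraries. Groups came from the treatment label, and replicate numbers, given in accession order, were names only. Per the study's methods, reads were mapped with HISAT2 and transcripts assembled with StringTie. A genome build was not given in the sources used here, but 99.36% to 99.41% of the gene identifiers per library were in GENCODE M21 (GRCm38) and most exons of the members had the same coordinates there. Positions are those of the files, and gene types and exon sequences those of GENCODE. The files of single libraries, deposited by the authors, list events by type, gene, position and strand. Their last column, named after FPKM, held only 0 and negative whole numbers and was not used. A deposited table of 31 differential lncRNA transcripts holds raw counts and FPKM values by the authors per library. It served only for relative depth (91 values of at least 10 counts). Its fold changes and p-values, the authors' own, were not used.

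Included and skipped entries of an event were merged, 20 event types became 12 classes and 4 kinds, and 2 entries were the same event if they shared class, gene, strand and exon or intron ends (for starts and ends, the splice-side position). Approximate classes, whose flanking exons differ, counted as events of their own. The groups' event numbers were tested by exact permutation over libraries, two-sided, adjusted by Benjamini-Hochberg over 4 kinds or 6 gene families. The members and lists were chosen with earlier results of these data known. Genes were named by rule: the 2 members per family with the most distinct events (with ties), those whose event numbers separate the groups, up to 10 with a single exon skipped in all 6 libraries (annotated and shortest first), those with an intron retained in all 6, and those with no event. No member had a group-specific event inside a transcript. Assembled events depend on depth, and no interval for counting error could be given for them. The tests were checked on simulated data. Alternatives left out each library, each kind of doubtful event or gene, or scaled by library. The tools were Python 3.11.15 with scipy 1.17.1, pandas 2.3.3, numpy 2.4.6 and, for plots, matplotlib 3.10.9. The number of unused per-sample columns was 0. Epha8 and Ephb3, and Robo1 and Robo4, tied in the naming rule.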

Additional observations from a re-analysis of the deposited data

How the results depend on the processing

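Under 14 alternatives, the higher number of all member events, skipped exons, alternative exon ends and retained introns in morphine libraries kept its direction, with exact p between 0.1 and 0.4. Leaving out a library moved 2 counts. Members with event numbers that do not overlap (4) became 5 to 7, with 7 without saline library 1, morphine library 1 or morphine library 3, and also 7 per 1000 events of the library. Group-specific events (2) became 5 to 12: 5 without saline library 1, 12 without saline library 2, 6 without saline library 3, and 12, 11 and 10 without morphine libraries 1, 2 and 3. With fewer libraries in a group, both criteria are easier to meet. Without Plxnb3 and Plxna3, an alternative chosen after seeing the data, 1 group-specific event was left and the difference in the share of retained introns from other genes turned to -2.16 points (adjusted exact permutation p = 0.0833). Without events outside the annotated gene, also chosen then, that difference was -0.110 points (adjusted exact permutation p = 0.938). Transcript starts and ends, without a clear difference at the start, turned to -4.5 events without saline library 2 (range -4.5 to 5.5 over libraries left out), to -1 without events on the other strand, and to -0.163 per 1000 events. Netrins with Dcc and Unc5 turned to -1.33 without saline library 2 (range to 4.17) and to -0.0080 per 1000 events, and ephrins to -0.0132 per 1000 events.

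With 5 libraries the smallest sign-flip p is 0.0625, so the differences from other genes could not pass: events per gene lay between 0.604 and 0.753 and events per 100 exons between -2.74 and -2.24. Without approximate classes the differences in the share of exon skipping (3.75 points), alternative exon ends (3.01) and starts and ends (-8.21) passed with an adjusted exact permutation p of 0.0417 each, which is below 0.05. These p-values too leave out the spread between genes. Leaving out Unc50 and Unc5cl, also chosen after seeing the data, changed no direction or call, nor did counting only genes listed in all 6 libraries or taking all coordinates as identity. No paired analysis was made, because the study gave saline and morphine to separate mice and names no pairing between them. The replicate numbers used here were given in accession order. Depth is known only relative to the other libraries, so how many events stayed below detection in each is unknown.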
